A study of Mus musculus with 6 samples.

Results

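The imprinted genes were chosen by name from the established imprinted domains, with earlier results of these data known. The 38 are autosomal mouse genes that are transcribed mainly from 1 parental chromosome in at least some tissues. They were followed through RNA-seq of V6.5 (C57BL/6-129) murine embryonic stem cells (ESCs), in which lentiviral small hairpin RNAs (shRNAs) lowered a subunit of cohesin or of condensin. All 38 were found among the 21125 genes of the deposited files, 37 by their RefSeq accession and H19 by its position.

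At an imprinted gene the copies inherited from the mother and the father have the same sequence but carry different marks, above all DNA methylation laid down in the germ line at an imprinting control region. Several domains keep a long noncoding RNA that is transcribed from 1 parental copy and goes with silence of neighbouring genes on that copy, and at H19 and Igf2 the insulator protein CTCF, which cohesin joins, sets which gene can reach shared enhancers. Many products act on fetal or placental growth, with paternally expressed genes often promoting it and maternally expressed genes often restraining it. The counts here carry no allele information, so each value is the sum of both copies and gain or loss of imprinting was not measured.

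The libraries were 1 with an shRNA against GFP (the control), 1 with an shRNA against SMC1 (a core subunit of cohesin), 2 against CAPH2 (a subunit of condensin II) and 2 against SMC2 (a core subunit of condensin I and II). The libraries of a pair came from different hairpins (CAPH2 #1 and #2, SMC2 #1 and #2), so a spread between them joins hairpin and culture, and neither GFP nor SMC1 has a replicate. All groups shared the line, growth on irradiated mouse embryonic fibroblasts followed by growth off these feeders, infection, and selection in puromycin. Infection was in medium with polybrene, which the labels give at the same concentration for every library. The puromycin is given there as 0.5 µg/ml for 48 hours and then 1 µg/ml for 48 hours. The general knockdown methods of the study give a higher puromycin concentration. A dilution of synthetic ERCC RNA (1.42 µl) was mixed with the RNA of 652000 cells each time.

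The libraries held 25467427 to 31337313 counts each, and levels are given as RPKM, the count per length of exon and per size of library. Smc1a, the SMC1 gene, had an RPKM of 36.1 with the GFP hairpin and of 14.4 with the SMC1 hairpin, Ncaph2 at 80.2 in GFP and 16.9 and 27.9 with CAPH2 #1 and #2, and Smc2 at 26.6 in GFP and 18.8 and 19.1 with SMC2 #1 and #2. The SMC1 library stood apart in the ESC marker list, where 7 of 10 genes were at least 2-fold below GFP and none was 2-fold above. The summed RPKM of the list was 3995 in GFP, 2120 in SMC1 and 3276 to 3494 in the other libraries. Pou5f1, the most abundant, was at 1285 in GFP and 785 in SMC1, and Esrrb had the largest change (a log2 change of -3.29). Of 12 fibroblast markers 11 were in the files and 7 had an RPKM of at least 1 in GFP. Of these 4 were at least 2-fold higher with SMC1, led by Fbn1 (2.19 on the log2 scale), and the summed RPKM of the 11 was 57.3 in GFP, 121.7 in SMC1, 90.9 with CAPH2 #1 and 64.2 to 71.2 in the other 3. Col1a1, the most abundant of them, was at an RPKM of 20.8 in GFP and 39.4 in SMC1, and no fibroblast marker was at 0 in all libraries. The primitive endoderm list (5 of 10 at an RPKM of at least 1 in GFP) had 1 gene up and 1 down with SMC1. Its summed RPKM was 223.6 in GFP, 342.0 in SMC1 and 213.4 to 257.1 in the other libraries. The trophoblast list (6 of 10) had 2 up and 1 down, and its summed RPKM was 174.5 in GFP, 294.6 in SMC1 and 134.9 to 181.6 in the others. Over all 12200 genes at an RPKM of 1 or more in GFP, 6.49% were 2-fold up and 8.45% down with SMC1. The summed RPKM of every list thus moved in the library that holds the SMC1 results below, down for the ESC list and up for the others. Single genes of the primitive endoderm and trophoblast lists went in both directions. The part of any list in those results was not tested. In bulk RNA, fewer cells of a type and less RNA per cell cannot be told apart.

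Changes against GFP are log2 ratios of RPKM with no pseudocount, called at 2-fold where the GFP library had an RPKM of 1 or more, which held for 30 of the 38 imprinted genes. The other 8 (Rtl1, Usp29, Zim1, Magel2, Kcnq1ot1, Kcnq1, Nap1l5 and Dcn) are given by their values. For CAPH2 and SMC2 the hairpins were averaged first. Every comparison against GFP shares the single GFP library.

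The SMC1 library held the larger changes. Of the 30 imprinted genes 9 were at least 2-fold higher than in GFP (30.0%, against 6.49% of the 12200 genes at an RPKM of 1 or more) and 3 were at least 2-fold lower (10.0%, against 8.45%), which makes 12 in either direction (40.0%, against 14.9%). The genes that were higher were Plagl1, Peg10, Cdkn1c, Sgce, Ndn, Peg12, Nnat, Rian and Dlk1, and those that were lower were Ascl2, Slc22a18 and H19. The median log2 change of the 30 was 0.56, against -0.04 over all 12200 genes, and 21 of the 30 lay above 0. Dlk1 (1.01) and Rian (1.05) lay just inside the threshold, and Ube3a (0.998), Zdbf2 (0.98), Mest (0.97) and Meg3 (0.91) just outside it. With the mean of the 4 CAPH2 and SMC2 libraries in place of GFP, 6 genes were up (against 4.01%) and the same 3 were down (10.0%, against 5.46%). No p-value is attached to these counts, since each group is 1 library. The imprinted genes were chosen with earlier results of these data known, so their contrast with all genes is a description only.

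Grouped by the parent whose copy is usually expressed, the 16 paternally expressed genes had a median log2 change of 0.98 with SMC1, with 7 up and 0 down by 2-fold. The 11 maternally expressed genes had a median of 0.46, with 2 up (Cdkn1c and Rian) and 3 down (H19, Ascl2 and Slc22a18). Over all 12200 genes 6.49% were up and 8.45% down. These counts leave out genes under an RPKM of 1 in GFP, among them the paternally expressed Usp29 (-1.01) and Nap1l5 (1.91). The difference between these groups was not tested. Whether each gene was expressed from 1 parental copy in these cells was not measured. Genes of 1 domain are neighbours and are not independent.

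**Figure D1:**
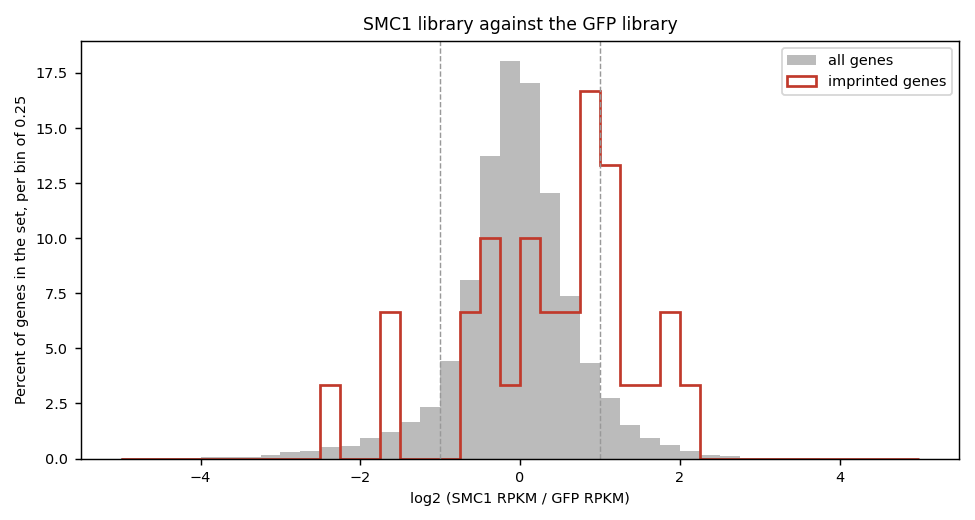
Distribution of log2 changes in the SMC1 library against the GFP library for genes at an RPKM of 1 or more in GFP, as the percent of each set in bins of 0.25, with all 12200 genes in grey (values beyond 5 placed in the end bins and genes listed at 0 in SMC1 left out) and the 30 imprinted genes as a red line. Dashed lines mark 2-fold; the imprinted genes have their median at 0.56 and all genes at -0.04.

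With CAPH2 and with SMC2 a single imprinted gene passed 2-fold, Ascl2, which was lower with both. No imprinted gene was 2-fold higher. The backgrounds were low as well: 0.434% of 12200 genes were up and 0.623% down with CAPH2, and 0.221% up and 0.508% down with SMC2 (in either direction 1.06% and 0.730%). The median log2 change of the 30 genes was 0.07 with CAPH2 and 0.10 with SMC2, against -0.02 and -0.03 over all genes. Each hairpin alone gave the same single call, against 2.53% of genes past 2-fold in either direction with CAPH2 #1, 0.713% with CAPH2 #2, 1.30% with SMC2 #1 and 0.926% with SMC2 #2.

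**Figure D2:**
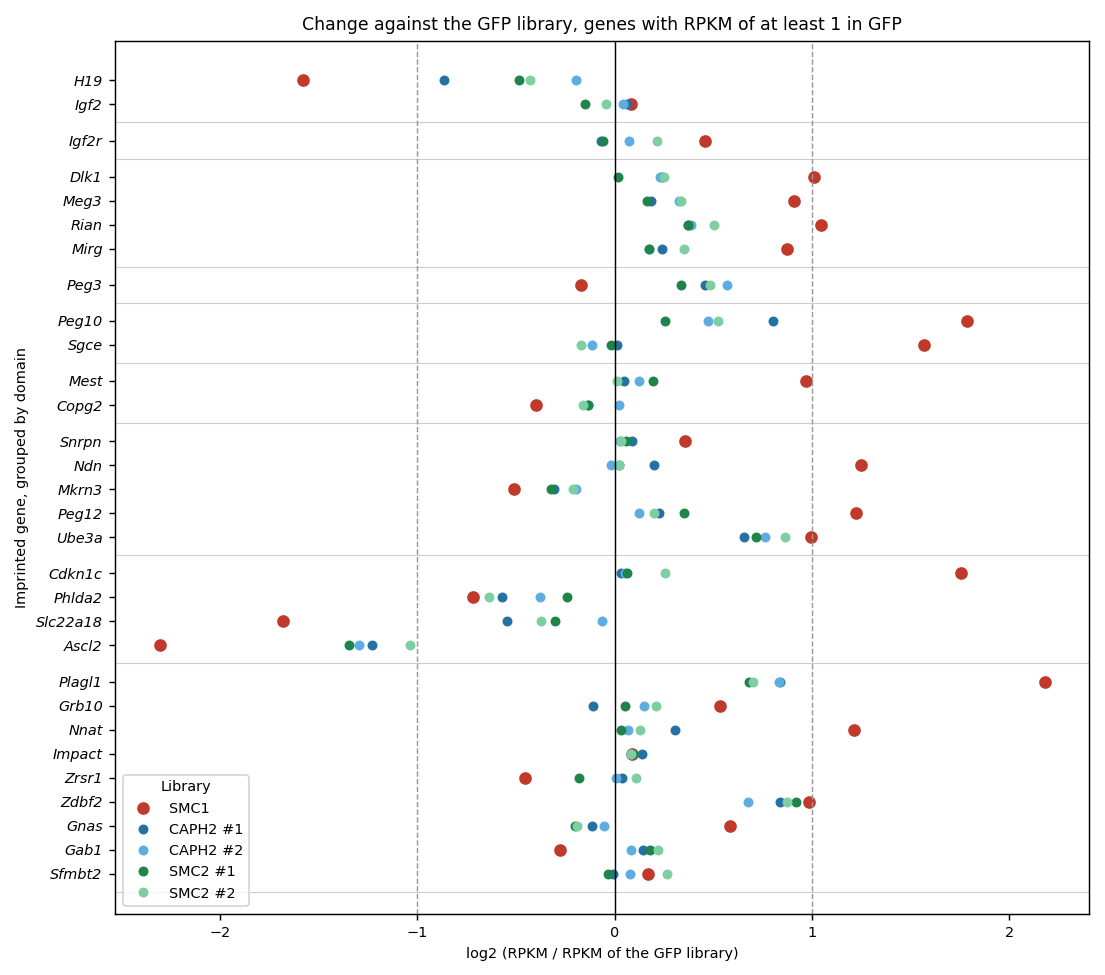
Log2 change of RPKM against the GFP library for the 30 imprinted genes at an RPKM of 1 or more in GFP, 1 point for each knockdown library, with grey lines between imprinted domains and dashed lines at 2-fold. The SMC1 points spread from -2.30 (Ascl2) to 2.18 (Plagl1), and Ascl2 is the only gene with a CAPH2 or SMC2 point beyond 2-fold.

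Promoters of 3 of these genes are printed, those of the gene with the largest rise with SMC1 (Plagl1), the gene with the largest fall (Ascl2) and a gene for which the SMC1 library alone stood out (Ndn). Each runs from 250 bases before to 50 bases after the RefSeq start site (table build GRCm38.p6) and matched mm9 exactly and once. They lie at mm9 chr10:12810388-12810687 (plus strand) for Plagl1, chr7:69492913-69493212 (plus strand) for Ndn and chr7:150155120-150155419 (minus strand) for Ascl2. The start site used for Plagl1 lies 44 bases downstream of the start of the counted row. Capitals mark CG dinucleotides, the bases that carry DNA methylation in mammals.
Plagl1: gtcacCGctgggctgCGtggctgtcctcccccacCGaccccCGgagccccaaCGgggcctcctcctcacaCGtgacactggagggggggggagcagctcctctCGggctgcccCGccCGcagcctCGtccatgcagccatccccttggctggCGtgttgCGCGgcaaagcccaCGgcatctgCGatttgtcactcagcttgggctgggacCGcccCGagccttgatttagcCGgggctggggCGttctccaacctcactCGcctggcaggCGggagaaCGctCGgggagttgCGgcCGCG
Ndn: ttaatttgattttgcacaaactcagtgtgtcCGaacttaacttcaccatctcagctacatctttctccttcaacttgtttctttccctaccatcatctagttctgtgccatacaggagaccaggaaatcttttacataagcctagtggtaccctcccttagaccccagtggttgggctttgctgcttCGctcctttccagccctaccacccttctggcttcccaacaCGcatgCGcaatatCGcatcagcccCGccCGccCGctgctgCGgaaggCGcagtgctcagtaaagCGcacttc
Ascl2: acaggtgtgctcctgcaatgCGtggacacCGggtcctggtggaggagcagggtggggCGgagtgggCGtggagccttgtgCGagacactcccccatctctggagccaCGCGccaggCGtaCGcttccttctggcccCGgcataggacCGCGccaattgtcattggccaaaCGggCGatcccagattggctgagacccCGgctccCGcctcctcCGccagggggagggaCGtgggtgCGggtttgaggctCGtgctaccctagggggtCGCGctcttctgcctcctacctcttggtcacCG
The windows hold 26 CG in Plagl1, 23 in Ascl2 and 11 in Ndn. The median was 15 over the 46 windows found for 30 of the imprinted genes and 7 over the 32851 windows of the table. The letters TGCCGC (or GCGGCA on the other strand), the core that ZFP57 binds when methylated, stood in 26.1% of the 46 windows, Plagl1 among them, and in 11.6% of all windows. GGGCGG (or CCGCCC), the GC box, stood in 52.2% and 35.7%, and in each of the 3 printed windows. AGGGGGC (or GCCCCCT), part of the CTCF motif, stood in 19.6% and 10.6%, and TATAAA (or TTTATA) in 17.4% and 13.6%, neither of them in a printed window. A match of GGGCGG can overlap one of AGGGGGC in the letters GGGC, or one of TGCCGC in the letters CCGC on the other strand. A match describes the letters only, and some genes have several windows.

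At the H19 and Igf2 domain the genes moved apart. H19 (NR_001592, chr7:149761437-149764051, minus strand, mm9) is a maternally expressed long noncoding RNA, and its RPKM was 21.997 in GFP, 7.36 in SMC1, 12.1 and 19.2 with CAPH2 #1 and #2, and 15.7 and 16.4 with SMC2 #1 and #2. The SMC1 library was the lowest of the 6 and GFP the highest, with both condensin pairs between them. The log2 change with SMC1 was -1.58 (95% exact binomial interval of the count ratio -1.75 to -1.41, here and below counting error only). It was -0.49 with CAPH2 (SD 0.47 between hairpins) and -0.46 with SMC2 (SD 0.04). Mir675, a microRNA made from an H19 exon, had 38 counts in GFP and 12 in SMC1, and reads in that exon count for both genes.

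Igf2 (NM_010514, chr7:149836673-149844709), the paternally expressed fetal growth factor that shares enhancers with H19, was at an RPKM of 23.9 in GFP, 25.3 in SMC1, 24.9 and 24.6 with CAPH2 #1 and #2, and 21.5 and 23.1 with SMC2 #1 and #2. Its 6 values lay close together while those of H19 spread by 2.99-fold between GFP and SMC1. The log2 change of Igf2 with SMC1 was 0.08 (-0.01 to 0.17). Igf2r (NM_010515, chr17:12875272-12962572) encodes the receptor that clears the Igf2 protein and is listed as maternally expressed. Its RPKM was 20.1 in GFP, 27.7 in SMC1, 19.2 and 21.2 with CAPH2, and 19.3 and 23.4 with SMC2. Its change with SMC1 was 0.46 (0.40 to 0.52), below 2-fold.

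In the Dlk1 and Meg3 domain on chromosome 12, genes expressed from either parent were higher in the SMC1 library. Rian (NR_028261, chr12:110842155-110899919), a maternally expressed noncoding RNA that hosts small nucleolar RNAs, was at an RPKM of 89.2 in GFP, 184 in SMC1, 116 and 117 with CAPH2, and 116 and 127 with SMC2. GFP was the lowest and SMC1 the highest, with a log2 change of 1.05 (1.01 to 1.09). Dlk1 (NM_010052, chr12:110691433-110698901), the paternally expressed membrane ligand of the domain, was at 4.69 in GFP, 9.45 in SMC1, 5.54 and 5.50 with CAPH2, and 4.75 and 5.58 with SMC2.

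The Dlk1 counts were 165 in GFP and 297 in SMC1, which gives a log2 change of 1.01 (0.73 to 1.29). Meg3 (NR_003633, chr12:110783608-110806809), the maternally expressed noncoding RNA next to Dlk1, was at 27.1 in GFP, 51.0 in SMC1, 30.8 and 34.1 with CAPH2, and 30.4 and 34.3 with SMC2, a change of 0.91 (0.87 to 0.95) with SMC1. Its short isoform (NR_027652) had a smaller change of 0.65. Mirg, a maternally expressed microRNA host, had a change of 0.87, and Rtl1, a paternally expressed gene derived from a retrotransposon, had 62 counts in GFP and 95 in SMC1. Rtl1 overlaps microRNAs on the opposite strand in 10.8% of its annotated exon bases, and the libraries were not made or counted by strand, so their reads cannot be told apart. Across all 4 genes of the domain with an RPKM of at least 1, the changes with SMC1 lay between 0.87 and 1.05, and those with CAPH2 and SMC2 between 0.14 and 0.44.

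Peg10 and Sgce, which start within 0.102 kb of each other on opposite strands of chromosome 6, both passed 2-fold with SMC1. Peg10 (NM_130877, chr6:4697306-4710516), a paternally expressed retrotransposon-derived gene needed in the placenta, was at an RPKM of 30.5 in GFP, 105 in SMC1, 53.3 and 42.4 with CAPH2, and 36.4 and 43.8 with SMC2. Its lowest value was in GFP and its highest in SMC1, a log2 change of 1.79 (1.74 to 1.84). Sgce (NM_001130190, chr6:4624350-4697204), which encodes epsilon-sarcoglycan, was at 3.15 in GFP, 9.36 in SMC1, 3.18 and 2.92 with CAPH2, and 3.12 and 2.80 with SMC2. For Sgce the 5 other libraries lay between 2.80 and 3.18, and SMC1 was 2.95-fold above the highest of them. The CAPH2 change was 0.65 for Peg10 (SD 0.23 between hairpins) and -0.05 for Sgce.

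Genes beside this pair were also higher with SMC1. Within 500 kb of the Peg10 start, 3 other genes had 10 or more counts in 2 or more libraries, and all 3 were up: Casd1 (log2 change 1.53), Ppp1r9a (1.09) and Col1a2 (1.43). Col1a2, a collagen gene on the fibroblast list, was higher with CAPH2 (0.68) and SMC2 (0.50) as well. Pon2, farther along the chromosome, had a change of 1.64. Casd1 and Pon2 were named by their size among the other genes of the imprinted domains, while Ppp1r9a and Col1a2 were named after their values were seen. Of 49 such other domain genes 43 were in the files and 29 had an RPKM of at least 1 in GFP. With SMC1, 6 of the 29 were up (against 6.49% of all genes) and 1 was down (against 8.45%). With CAPH2 and SMC2 none passed 2-fold in either direction, against 1.06% and 0.730% of all genes. The one that was down was Cobl (-2.38), beside Grb10, and Cd81, the most abundant of the list, had a change of -0.29. Osbpl5, beyond Cdkn1c, had a change of 1.55. The set includes genes of the domains whether or not they are imprinted in ESCs.

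**Figure D3:**
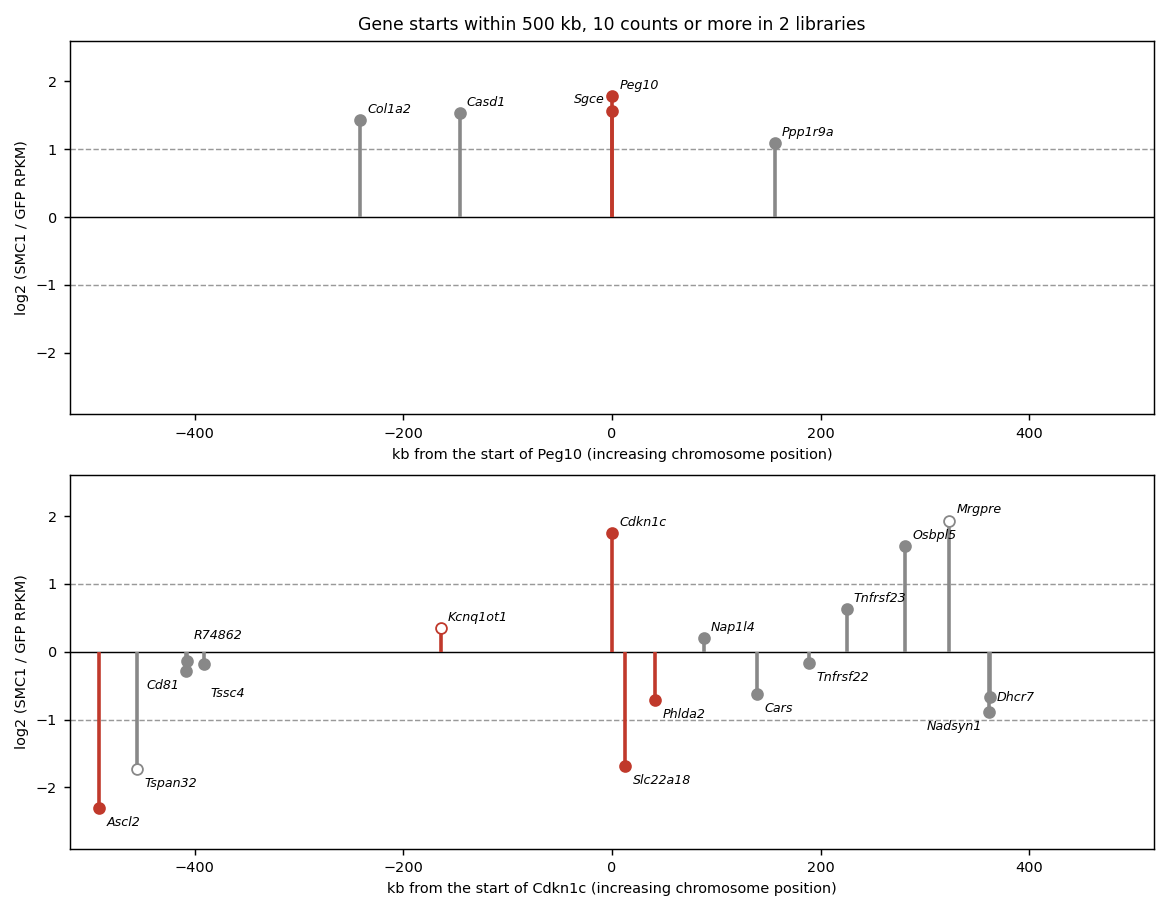
Log2 change in the SMC1 library against GFP for genes with 10 or more counts in 2 or more libraries, by the distance of their start in kb from the start of Peg10 (upper panel) or Cdkn1c (lower panel). Imprinted genes of the 38 are red and others grey, with open circles for an RPKM under 1 in GFP; all 5 genes around Peg10 lie above 1, while around Cdkn1c changes run from -2.30 (Ascl2) to 1.93 (Mrgpre).

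The Kcnq1ot1 domain at the distal end of chromosome 7 held changes in both directions. Cdkn1c (NM_001161624, chr7:150644247-150646955), the maternally expressed inhibitor of cyclin-dependent kinases also called p57, was at an RPKM of 26.0 in GFP, 87.8 in SMC1, 26.7 and 27.0 with CAPH2, and 27.2 and 31.1 with SMC2. SMC1 was 2.83-fold above the highest other library, and the log2 change was 1.75 (1.65 to 1.85). Slc22a18 (NM_008767, chr7:150659660-150685237), a maternally expressed transporter gene that starts 12.7 kb from Cdkn1c, was at 2.66 in GFP, 0.83 in SMC1, 1.82 and 2.54 with CAPH2, and 2.15 and 2.05 with SMC2. It rested on 86 counts in GFP and 24 in SMC1, a log2 change of -1.68 (-2.40 to -1.01), and SMC1 was 2.20-fold below the lowest other library. Adjacent genes with the same expressed parent thus had changes of opposite sign.

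Ascl2 (NM_008554, chr7:150152727-150155169), a maternally expressed transcription factor of the placental trophoblast and the gene whose promoter is printed above, had 199 counts in GFP, 36 in SMC1, 92 and 71 with CAPH2, and 82 and 92 with SMC2. Its RPKM was 5.74 in GFP, 1.16 in SMC1, 2.45 and 2.34 with CAPH2, and 2.26 and 2.80 with SMC2. Every knockdown library was below GFP, and the CAPH2 and SMC2 hairpins overlapped. The log2 change was -2.30 with SMC1 (-2.86 to -1.79), -1.26 with CAPH2 (SD 0.05) and -1.18 with SMC2 (SD 0.22). Phlda2, a maternally expressed restraint on placental growth, had an RPKM of 135 in GFP and 81.9 in SMC1 (a log2 change of -0.72). Kcnq1ot1 (NR_001461, chr7:150399016-150482452), the paternally expressed noncoding RNA that lies inside an intron of Kcnq1, had few reads for its length, with 145 counts in GFP, 165 in SMC1, 101 and 87 with CAPH2, and 105 and 215 with SMC2. The SMC2 hairpins disagreed for it (SD 0.83 on the log2 scale), and the SMC1 change was 0.35 (0.02 to 0.68). Kcnq1, a potassium channel gene, had 9 counts or fewer in every library. The files count Kcnq1ot1 as 1 unspliced row, so unspliced reads of Kcnq1 from that intron cannot be separated from it.

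In the Snrpn and Ube3a domain, the region deleted in Prader-Willi and Angelman syndromes, 2 of 5 genes at an RPKM of 1 or more passed 2-fold with SMC1. Ndn (NM_010882, chr7:69493163-69494813), which encodes necdin, was at an RPKM of 14.1 in GFP, 33.6 in SMC1, 16.2 and 14.0 with CAPH2, and 14.3 and 14.3 with SMC2. The 5 other libraries lay between 14.0 and 16.2, and the log2 change with SMC1 was 1.25 (1.10 to 1.41). Peg12 (NM_013788, chr7:69606757-69609396), a paternally expressed gene at the end of the domain, was at 4.19 in GFP, 9.77 in SMC1, 4.90 and 4.57 with CAPH2, and 5.35 and 4.81 with SMC2, a change of 1.22 (1.00 to 1.45). The other paternally expressed genes of the domain did not follow as a block. Snrpn, a splicing factor gene and the most abundant of them (RPKM 89.1 in GFP), had a change of 0.36, while Mkrn3, a ring finger gene, had -0.51. Magel2 had 81 counts in GFP and 137 in SMC1.

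Ube3a, a ubiquitin ligase gene listed as the maternally expressed member of the domain, was higher than GFP in every knockdown library. Its RPKM was 15.1 in GFP, 30.1 in SMC1, 23.7 and 25.5 with CAPH2, and 24.7 and 27.4 with SMC2. The GFP library stood alone below the 5 others. The log2 change of this row with SMC1 was 0.998. A shorter Ube3a isoform, with 947 counts in GFP and 1802 in SMC1, had a change of 1.09, so its 2-fold call depends on the row. Ube3a, Zdbf2 and Plagl1 were the 3 of 36 imprinted genes with enough counts for which all 5 knockdown libraries were at least 1.5-fold above GFP (8.33%, against 2.39% of 14629 genes), and Ascl2 was the 1 for which all 5 were 1.5-fold below (2.78%, against 1.11%). The rule for a full account did not choose Ube3a and Zdbf2, which were added after their values were seen. A single GFP library sets all of these ratios.

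Plagl1 (NM_009538, chr10:12810594-12851501), a paternally expressed zinc finger transcription factor also called Zac1, had the largest rise among the 30 genes with SMC1. Its RPKM was 2.47 in GFP, 11.2 in SMC1, 4.42 and 4.40 with CAPH2, and 3.96 and 4.02 with SMC2. GFP was the lowest, the condensin libraries lay together above it, and SMC1 was 2.54-fold above the highest of them. The log2 change was 2.18 with SMC1 (1.99 to 2.38), 0.83 with CAPH2 and 0.69 with SMC2. Zdbf2, a paternally expressed gene on chromosome 1, was at an RPKM of 10.7 in GFP, 21.1 in SMC1, 19.1 and 17.1 with CAPH2, and 20.2 and 19.6 with SMC2. For Zdbf2 the SMC1 value was 1.05-fold the highest of the others.

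Nnat (NM_010923, chr2:157385846-157388255), the paternally expressed neuronatin gene, was at an RPKM of 21.4 in GFP, 49.5 in SMC1, 26.4 and 22.3 with CAPH2, and 21.9 and 23.4 with SMC2, a change of 1.21 with SMC1 (1.07 to 1.36). Its 5 other libraries spread only from 21.4 to 26.4. Nap1l5, a paternally expressed retrogene, had 14 counts in GFP, 47 in SMC1, 33 and 29 with CAPH2, and 16 and 25 with SMC2, so its log2 change of 1.91 has a wide interval (1.02 to 2.89).

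**Figure D4:**
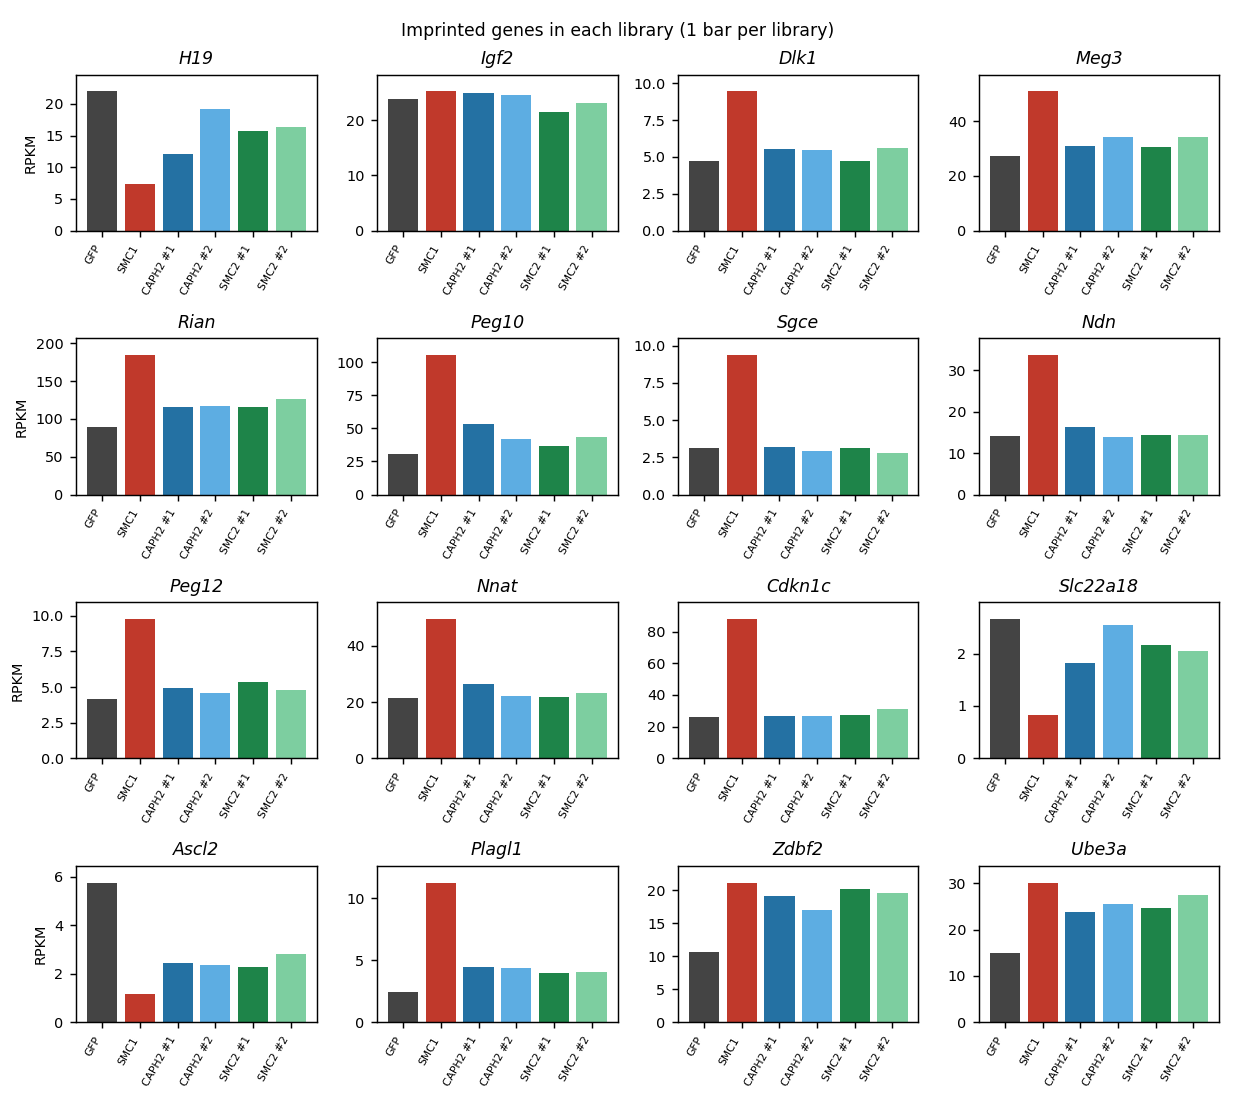
RPKM of 16 imprinted genes, 1 bar per library and with each vertical axis from 0, for the control (GFP), SMC1, the CAPH2 hairpins and the SMC2 hairpins. SMC1 is the highest bar for Plagl1 (11.2), Cdkn1c (87.8) and Peg10 (105), GFP is the lowest bar for Zdbf2 and Ube3a, and Igf2 is near level.

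The remaining genes lay under 2-fold in every comparison or had few counts. In the Peg3 domain, Peg3, a paternally expressed zinc finger gene added to the full account after its values were seen, was at an RPKM of 14.5 in GFP, 12.9 in SMC1, 19.9 and 21.5 with CAPH2, and 18.3 and 20.2 with SMC2, so the 4 condensin libraries lay above GFP and SMC1 below it. Its neighbour Usp29 had 72 counts in GFP, 32 in SMC1, 67 and 50 with CAPH2, and 56 and 53 with SMC2, a change of -1.01 (-1.66 to -0.39) at an RPKM under 1. Zim1, the maternally expressed gene beside them, had 44 counts in GFP, 25 in SMC1 and 59 to 106 in the others.

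Mest, a paternally expressed hydrolase gene, was at an RPKM of 88.3 in GFP and 173 in SMC1. Copg2, which runs toward it from the opposite strand, had a log2 change of -0.40. The counted rows of Mest and Copg2 share 47 bases at their ends. In the wider annotation, exons of Copg2 cover 28.0% of the annotated exon bases of Mest, and the libraries do not mark strand. Of the single genes, Gnas, whose isoforms are expressed from different parents, was the most abundant (RPKM 232 in GFP, a change of 0.58 with SMC1), and 53.6% of its annotated exon bases overlap a transcript of the opposite strand. Grb10, a growth restraint, had a change of 0.53 with SMC1. Impact, Sfmbt2, Gab1 and Zrsr1 had changes between -0.45 and 0.17. Dcn, which encodes decorin, imprinted in placenta and abundant in fibroblasts, had 1 count in GFP, 19 in SMC1 and 5 to 7 in the others.

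Across the 36 imprinted genes with 10 or more counts in 2 or more of the 6 libraries, SMC1 was at least 2-fold above all 5 other libraries for 4 (Sgce, Ndn, Cdkn1c and Plagl1, 11.1%, against 5.02% of 14629 genes) and 2-fold below all 5 for 1 (Slc22a18, 2.78%, against 4.43%). SMC1 was the highest library for 20 of the 36 (55.6%, against 37.5% of genes) and the lowest for 11 (30.6%, against 34.7%). GFP was the lowest for 17 (47.2%, against 27.7%) and the highest for 6 (16.7%, against 28.9%). Dcn and Kcnq1 fell below this count minimum. Without CAPH2 #1, 8 imprinted genes stood 2-fold outside the others in place of 5. The share over all genes was not recorded for that setting, so the rise cannot be read as particular to imprinted genes.

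A fit of all 6 libraries in 4 groups with the edgeR quasi-likelihood test takes its spread only from the CAPH2 and SMC2 pairs (2 residual degrees of freedom) and assumes that the lone GFP and SMC1 libraries vary as those pairs do. Under that assumption, at a Benjamini-Hochberg adjusted p under 0.05, 29 of the 36 imprinted genes passed with SMC1, against 47.8% of 14629 genes, with 20 higher (against 24.0%) and 9 lower (against 23.9%). With CAPH2 8 passed, against 7.70% of genes, with Rian, Peg3, Peg10, Magel2, Ube3a, Plagl1 and Zdbf2 higher (against 4.56%) and Ascl2 lower (against 3.14%). With SMC2 6 passed, against 6.36% of genes, with Rian, Peg3, Ube3a, Plagl1 and Zdbf2 higher (against 3.99%) and Ascl2 lower (against 2.37%). For Zdbf2 the adjusted p of this edgeR fit was 0.0151 with CAPH2 and 0.0104 with SMC2, and for Ascl2 it was 0.0197 and 0.0183.

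The comparison of CAPH2 with SMC2 is the only one with 2 libraries on each side. No imprinted gene of the 36 tested had an adjusted p under 0.05 (edgeR quasi-likelihood test, Benjamini-Hochberg over 14439 genes), against 0.00693% of all genes, which is the targeted Smc2 alone. At an unadjusted p under 0.05 there were 2 imprinted genes, Magel2 (edgeR log2 difference, SMC2 minus CAPH2, -0.40, SE 0.16, adjusted p 0.999) and Kcnq1ot1 (0.76, SE 0.32, adjusted p 0.999), and 442 genes in all. DESeq2 called 0 of the imprinted genes and 6 genes in all. Leaving out 1 hairpin leaves its group with a single library, which is assumed to vary like the other pair. Without CAPH2 #2, 3 imprinted genes (H19, Peg10 and Kcnq1ot1) and 326 genes passed, without CAPH2 #1 0 and 23, and without SMC2 #1 0 and 4. For the genes described above as shared by both condensin knockdowns, the edgeR differences were 0.08 (SE 0.20) for Ascl2, -0.14 (SE 0.10) for Plagl1, 0.09 (SE 0.08) for Ube3a and 0.14 (SE 0.07) for Zdbf2. These do not show that the knockdowns act alike.

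The proteins that set and keep imprints were examined together with Tet1 and Tet2, which oxidise methylated cytosine. The list held 18 genes, 17 of them with an RPKM of at least 1 in GFP. With SMC1 none was 2-fold higher (against 6.49% of all genes) and 3 were 2-fold lower (against 8.45%). With CAPH2 and SMC2 none passed in either direction, against 1.06% and 0.730%. Dppa3 (also called Stella), which protects maternal methylation in the zygote, was at an RPKM of 25.3 in GFP, 3.56 in SMC1, 16.9 and 20.3 with CAPH2, and 18.3 and 17.2 with SMC2. Zfp57, the zinc finger protein that binds methylated imprinting control regions, was at 191 in GFP, 62.2 in SMC1, 201 and 206 with CAPH2, and 206 and 206 with SMC2. For Zfp57 the 5 other libraries lay between 191 and 206, and the log2 change with SMC1 was -1.62. Tet2, a dioxygenase that oxidises methylated cytosine, had a change of -1.50 and Dppa3 of -2.83.

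Trim28, the corepressor that ZFP57 recruits and the most abundant of the list, was at an RPKM of 809 in GFP and 612 in SMC1 (-0.40). Dnmt1, which copies methylation at replication, changed by -0.20, and Ctcf by 0.21. Dnmt3b, a de novo methyltransferase, was at 115 in GFP and 207 in SMC1 (0.85). The falls of Dppa3, Zfp57 and Tet2 occurred in the library in which the ESC markers were low, and the part of either in the values of the imprinted genes was not tested. Other genes of the list also moved under 2-fold with SMC1, with Arid4b (0.95) and Zfp445 (0.82) higher and Ehmt2 (-0.58) and Uhrf1 (-0.57) lower. Arid4b and Zfp445 were higher with CAPH2 (0.60 and 0.65) and SMC2 (0.66 and 0.60) as well. Dnmt1, Ctcf, Dnmt3b, Arid4b, Zfp445, Ehmt2 and Uhrf1 were named after their values were seen.

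**Figure D5:**
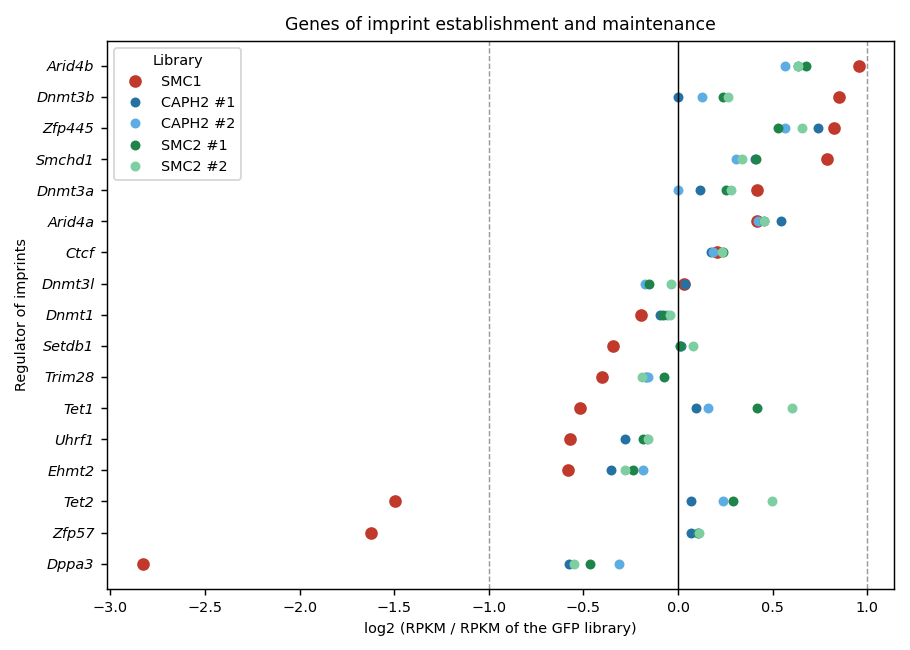
Log2 change of RPKM against the GFP library for the 17 genes of the imprint list, Tet1 and Tet2 included, with an RPKM of at least 1 in GFP. Genes are ordered by their change with SMC1, with 1 point for each knockdown library. Dppa3 (-2.83), Zfp57 (-1.62) and Tet2 (-1.50) lie beyond the dashed 2-fold line with SMC1, and no CAPH2 or SMC2 point does.

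The direction of the smaller falls depends on the scaling. The ERCC RNAs, added by cell number, raise all SMC1 values, with the median of all genes at 0.83, and those of CAPH2 to 0.32 and SMC2 to 0.57. On that scale 19 imprinted genes were 2-fold up and 1 down with SMC1, against 37.8% and 2.76% of genes, and the 1 down was Ascl2 (-1.44). Slc22a18 (-0.81) and H19 (-0.71) kept their sign but not the 2-fold change with SMC1. Peg3, Zim1, Copg2, Mkrn3, Phlda2, Zrsr1 and Gab1 turned positive with SMC1, and these 7 lay below the median of all genes on that scale. With SMC2 10 genes turned positive (H19 to 0.15, Phlda2 to 0.18, Slc22a18 to 0.27, and Igf2, Usp29, Sgce, Copg2, Mkrn3, Zrsr1 and Gnas), and with CAPH2 5 did (Usp29, Sgce, Copg2, Mkrn3 and Gnas). Ascl2 stayed negative with CAPH2 (-0.92) and SMC2 (-0.58). The rises of Plagl1 (3.05), Peg10 (2.65) and Cdkn1c (2.62) with SMC1 grew by the same shift.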

How the data were processed

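RNA-seq of 6 mouse ESC libraries (TruSeq version 2 kit, which does not mark strand) was analysed. Reads had been aligned by the authors to mm9 using Bowtie, which kept those with at most 2 places, so near-identical copies, such as retrogenes, lose reads. Per the labels and the methods they deposited raw counts of exonic reads per RefSeq transcript, and reads of an exon that isoforms share were counted in all of them. The RPKM values, also deposited, divide these counts by exon length and by the reads of the library and do not use the 92 ERCC rows. The total count was 25467427 to 31337313 per library.

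Symbols came from the RefSeq accession of 25353 of 26073 rows and from a GENCODE gene (NCBI build 37) at the same place for 698, and 22 rows stayed unnamed. The row with the most counts stood for each gene. The members and lists were chosen with earlier results of these data known. Log2 ratios of RPKM against GFP had no pseudocount, and hairpins were averaged first, as in the study. Intervals are 95% exact binomial intervals of count ratios and cover counting error only, since nothing marks the original molecules.

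CAPH2 was tested against SMC2 with the quasi-likelihood test of edgeR 4.0.16 (TMM scaling, Benjamini-Hochberg adjustment) on genes that reached 10 counts in 2 or more libraries, and with DESeq2 1.42.0 as an alternative, in R 4.3.3. The edgeR step was tested on simulated data. The labels do not say that the hairpin libraries came from separate cultures, so p-values measure only the spread between them. Other steps used Python 3.11.15 and scipy 1.17.1. Alternatives were the scaling (TMM, DESeq2 size factors, ERCC counts), filters on low values, a pseudocount of 1, the longest row per gene, a 4-group edgeR fit and leaving out each hairpin.

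Values in all libraries were given for imprinted genes with a mean of at least 20 counts and a 2-fold change in any comparison against GFP, and for H19, Igf2, Meg3, Dlk1, Kcnq1ot1, Cdkn1c and Igf2r. From the other lists, up to 4 genes with the largest changes past 2-fold and the most abundant gene were named, and genes added after their values were seen are marked. No sequence is printed for genes with no promoter in the RefSeq table or on a chromosome left out.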

Additional observations from a re-analysis of the deposited data

How the results depend on the processing

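The count of 12 imprinted genes past 2-fold with SMC1 became 20 with ERCC scaling, 7 at a GFP RPKM of at least 5 and 29 in the 4-group edgeR fit, and its median of 0.56 became 1.42 with ERCC scaling, 0.46 at a GFP RPKM of at least 5, 0.68 with no filter and 0.36 against the mean of the condensin libraries, an alternative chosen after seeing the data. With CAPH2 the single call, Ascl2 lower, was lost with ERCC scaling (-0.92). On that scale 4 other genes (Peg10, Ube3a, Plagl1 and Zdbf2) were 2-fold higher, against 2.32% of all genes. The median of the imprinted genes was then 0.40, against 0.32 over all genes. The count of 1 with CAPH2 became 0 with a pseudocount of 1 (against 0.139% of all genes up and 0.139% down). With the count filter in place of the RPKM filter it became 2, with 1 up and 1 down (against 2.47% and 0.943%). With no filter it became 3, with 2 up and 1 down (against 3.90% and 3.19%). With SMC2 the call of Ascl2 was lost with ERCC scaling too (-0.58). There 5 other genes (Rian, Peg3, Ube3a, Plagl1 and Zdbf2) were 2-fold higher, against 6.85% of all genes. The median of the imprinted genes was then 0.70, against 0.57 over all genes. The count of 1 with SMC2 became 0 with a pseudocount of 1 (against 0.0328% of all genes up and 0.115% down). With no filter it became 3, with 2 up and 1 down (against 3.21% and 2.96%). The shares over all genes rose as well with the looser filters, so these rises cannot be read as particular to imprinted genes. TMM, DESeq2 size factors and the longest row per gene kept each of these counts within 1.5 times, with 11, 11 and 12 calls for SMC1. The shares over all genes in those settings were 6.18% to 6.50% up and 8.41% to 8.78% down. The 5 genes for which SMC1 stood outside all other libraries became 10 with ERCC scaling and 5 to 8 when a hairpin library was left out, with no share over all genes recorded. These alternatives were also chosen after seeing the data.

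For CAPH2 against SMC2, the count of 1 gene became 4 with ERCC counts as library sizes, 7 with no filter, 6 with DESeq2 and 1 to 326 when a hairpin was left out, which takes the spread from the other pair alone. The imprinted genes among them stayed at 0 except for 0 to 3 when a hairpin was left out. Adding the replicate number as a block gave 52 genes and no imprinted gene. The numbers name different hairpins, and the deviations of same-numbered libraries had a correlation of 0.05002, so they pair nothing. Of the values for single genes under alternatives that left out no hairpin, 419 moved by less than the spread between hairpins or the counting interval and 157 by more. These alternatives include the mean of the condensin libraries in place of GFP, and ERCC scaling, which shifts all genes of a library together. The cause of these differences was not tested, apart from filters, which change the genes tested. Depth limits Kcnq1, Dcn, Nap1l5, Usp29 and Zim1, and the single GFP and SMC1 libraries limit every comparison with them.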

Other observations

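Genes of the imprinted domains that are not among the 38 and had an RPKM under 1 in GFP entered none of the 2-fold counts, and some of them, chosen after their values were seen, are given here. Asb4, in the Peg10 and Sgce domain, had 22 counts in GFP, 83 in SMC1 and 22 to 28 in the others. Peg13, a noncoding RNA on chromosome 15, had 70 counts in GFP, 195 in SMC1 and 78 to 102 in the others. Airn, the noncoding RNA that overlaps Igf2r and silences it in cis where imprinted, had 2 counts in GFP and 10 in SMC1, too few for a comparison. Tspan32, near Ascl2, went the other way, with 26 counts in GFP, 7 in SMC1 and 13 to 36 in the others. The Gnas isoform NM_201617 had 10 counts in GFP, 42 in SMC1, 36 and 20 with CAPH2 #1 and #2, and 23 and 29 with SMC2 #1 and #2, while the other Gnas rows had log2 changes of 0.58 to 0.64 with SMC1.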
